A study of Homo sapiens with 30 samples.

Results

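The bone morphogenetic protein (BMP) and growth and differentiation factor (GDF) transcripts measured here are BMP1, BMP2, BMP4, BMP5, BMP6, BMP7, BMP8B, GDF5, GDF11 and GDF15. All probes that carry one of these 10 gene names in the array files were taken, which gave 15 of 41000 probes and 10 of 30484 gene names. BMP1 had 4 probes, BMP7 had 3 and each other gene had 1. For BMP1 and BMP7 the probe well above background on most arrays leads the text, and the other probes are given beside it.

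BMPs and GDFs are secreted ligands of the TGF-β superfamily. They are made as long precursors, cleaved by furin-type proteases, and released as dimers that bind type I and type II serine/threonine kinase receptors, which phosphorylate SMAD1, SMAD5 and SMAD9. These SMADs enter the nucleus with SMAD4 and switch on genes such as ID1, ID2 and ID3, while noggin, chordin and gremlin hold the ligands off their receptors. BMP1 carries the family name but is a secreted metalloproteinase that trims procollagens and chordin. GDF11 signals chiefly through the activin branch, and GDF15 is a distant member known as a stress-induced serum factor. Since the treatment itself was a BMP, the arrays show both which ligands each line makes on its own and whether adding a ligand alters the transcripts of its relatives.

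The data were 30 two-colour arrays of 5 breast cancer cell lines, HCC1954, MDA-MB-231, MDA-MB-361, T-47D and ZR-75-30, at 0.5, 1, 3, 6, 12 and 24 h of treatment, with 1 array for each line and time point. On every array the Cy3 channel held cells given vehicle and the Cy5 channel held cells of the same line and time given recombinant human BMP7 at 50 ng/ml. The study selected these lines for low endogenous expression of BMP7 on earlier measurements. All of them except MDA-MB-231 and T-47D were selected for low BMP4 as well, so differences in BMP4 between lines are not independent of that choice. The study cultured MDA-MB-231 and T-47D in less serum than recommended, so serum and cell line cannot be told apart in these 2 lines. Each sample pooled the cells of 3 cultures, no array was repeated and no dyes were swapped. The 6 arrays of a line are therefore 6 time points and not replicates, each line is represented by 1 stock of cells, and the p-values given measure the spread between time points or between lines.

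Per array, 55.5% to 69.8% of all probes were well above background in the vehicle channel. The epithelial markers EPCAM and KRT18 and the marker CDH1 were above background on 6 of 6 arrays in every line, with CDH1 lowest in MDA-MB-231. ERBB2 was highest in HCC1954, followed by MDA-MB-361 and by ZR-75-30, PGR in T-47D, and KRT5 was above background on all arrays in HCC1954 only. Of the markers of other cell types, PTPRC and DCN were not well above background on any array, while PECAM1 was on 6 arrays of HCC1954 and 3 of MDA-MB-231, and COL1A1 was on 24 of 30. ESR1, GATA3, GRB7 and VIM were also read, and GATA3 was above background on every array. The part of these markers in the results below was not tested.

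In the vehicle-treated cells most of the ligands differed between lines, BMP7 and BMP4 over the widest ranges, and BMP8B did not differ past the threshold. BMP7 was brightest in ZR-75-30 and not detected above background in MDA-MB-231 by its leading probe. BMP4 was highest in MDA-MB-231, which was not selected for low BMP4. BMP2 was above background on all 6 arrays only in HCC1954. In an F-test over the 5 lines with limma, 14 of 15 ligand probes and 9 of 10 leading probes passed an adjusted p of 0.05, where 73.6% of all probes did so. Among the probes above background on at least 1 array, as all 15 ligand probes were, the share was 83.8%. Of the 150 pairs of lines over the 15 probes, 101 differed (67.3%), against 46.7% of the pairs over all probes. Over the 10 leading probes 59 of 100 pairs differed. The share over all probes includes probes never above background, and no share of pairs without them was computed. Levels, folds and p-values come from log2 signals made comparable between arrays by quantile normalization of the mean of both channels. The lowest, median and highest signals printed below are processed signals before that step, so they also carry differences in brightness between arrays. Both are compared only between lines within a probe. In bulk samples a difference in level can also reflect how many cells of the culture express a gene.

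BMP7 is the ligand that was added, and its leading probe A_23_P68487 lies at chr20:55178962-55179021 (hg18). In ZR-75-30 its vehicle signal was 40176 at the lowest, 51908 at the median and 69356 at the highest of 6 arrays. In HCC1954 these values were 4001, 6255 and 21492. In MDA-MB-361 they were 1598, 2284 and 2573. In T-47D they were 259, 629 and 781, and in MDA-MB-231 no array was above background, with signals between 2.63 and 8.59. The ranges of the 4 lines with signal did not overlap. ZR-75-30 was 7.62-fold above HCC1954 (limma adjusted p = 8.64e-12 over all pairs and probes), HCC1954 was 3.07-fold above MDA-MB-361 (limma adjusted p = 8.92e-07) and MDA-MB-361 was 3.44-fold above T-47D (limma adjusted p = 1.75e-07). Against MDA-MB-231, which gives only a bound, ZR-75-30 was at least 2450-fold, HCC1954 at least 322-fold, MDA-MB-361 at least 105-fold and T-47D at least 30.5-fold higher. The bound sets the mean of the brighter line against the lowest signal well above background on each array of the dimmer line.

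The other BMP7 probes were also highest in ZR-75-30. Probe A_24_P91566 (chr20:55236787-55236846) had a median signal of 1350 in ZR-75-30 and of 173 in HCC1954, and was not above background on any array of T-47D or MDA-MB-231. Probe A_23_P154643 (chr20:55177211-55177264) had a median signal of 769 in ZR-75-30, and there MDA-MB-361 and HCC1954 did not differ (1.19-fold, limma adjusted p = 0.613). The probes thus agreed on ZR-75-30 as highest and disagreed on whether T-47D has signal above background, since the leading probe found it there on 6 of 6 arrays and the others on 0.

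**Figure D1:**
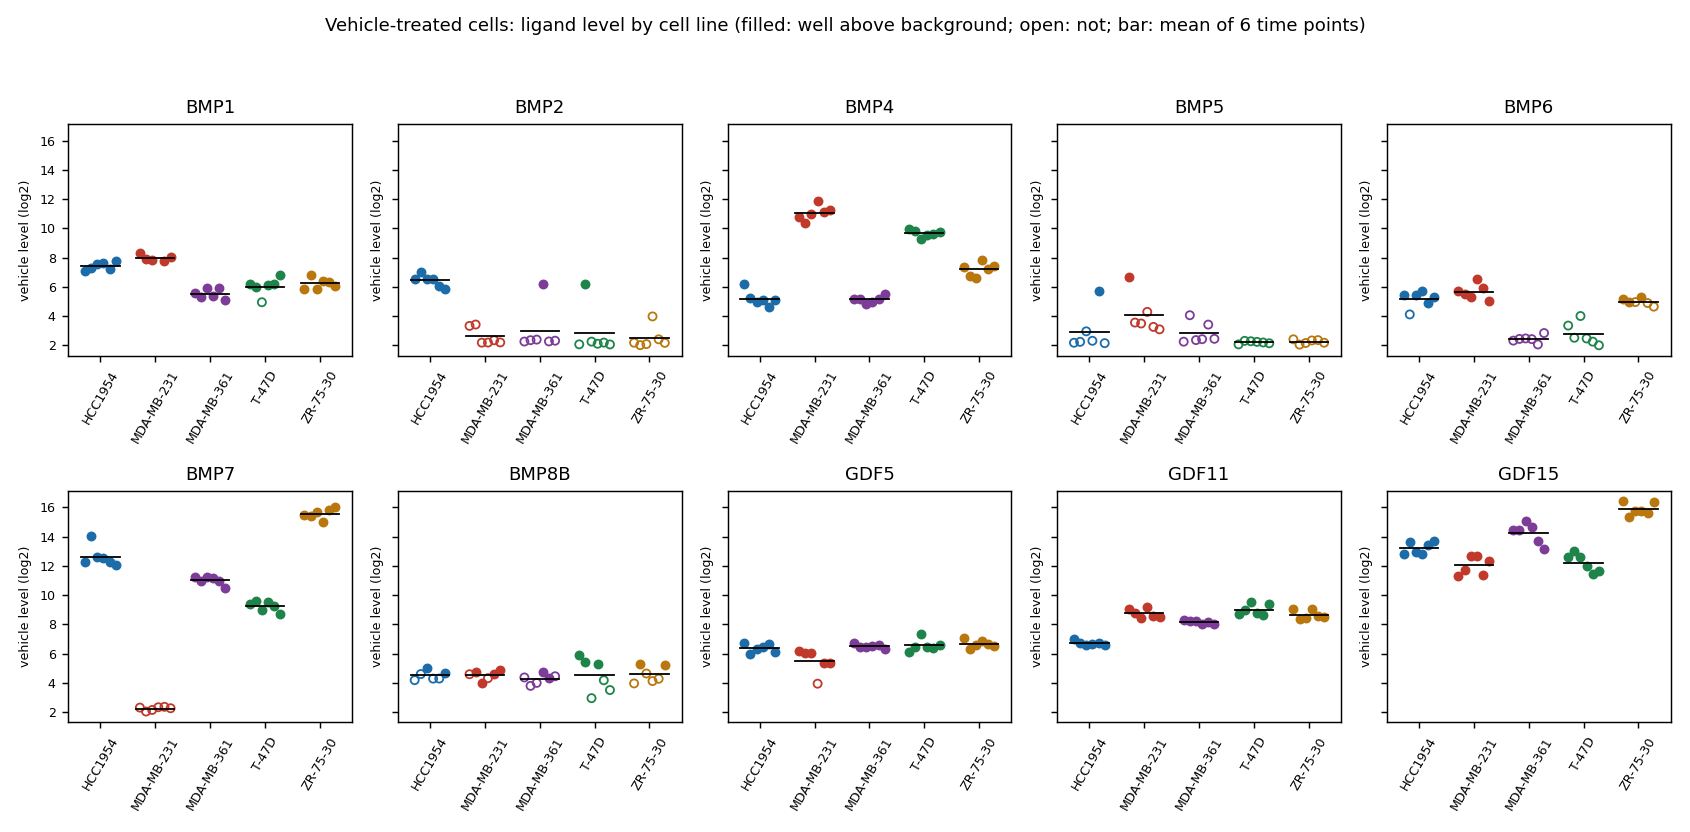
Vehicle level on the log2 scale (y axis, after quantile normalization of the mean of both channels) of the leading probe of each of the 10 genes by cell line (x axis), with 1 point per array from 0.5 h at the left to 24 h at the right of each line, filled where the signal was well above background, and a bar at the line's mean. BMP7 spans from a mean of 15.57 in ZR-75-30 to 2.23 in MDA-MB-231, where all points are open. BMP8B stays nearly level, and so does GDF5 apart from a lower MDA-MB-231. Points of different genes are not to be compared.

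Within HCC1954, 1 time point stood above the rest in BMP7. At 1 h the vehicle signal of the leading probe was 21492, while the other 5 arrays lay between 4001 and 7858. The same array was highest in HCC1954 for A_24_P91566 (587, others 112 to 192) and for A_23_P154643 (145, others 30.7 to 43.9). The BMP7-treated cells of that array showed it too, with a signal of 23144 for the leading probe against 4178 to 8498 on the others. The log2 ratio of that array was 0.11, so the higher level was shared by both channels. BMP7 was not the only ligand at an extreme on that array. The vehicle signal of BMP2 was at its highest in HCC1954 there (167, others 55.4 to 104). That of BMP6 was at its lowest (17.7, others 25.1 to 49.8).

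**Figure D2:**
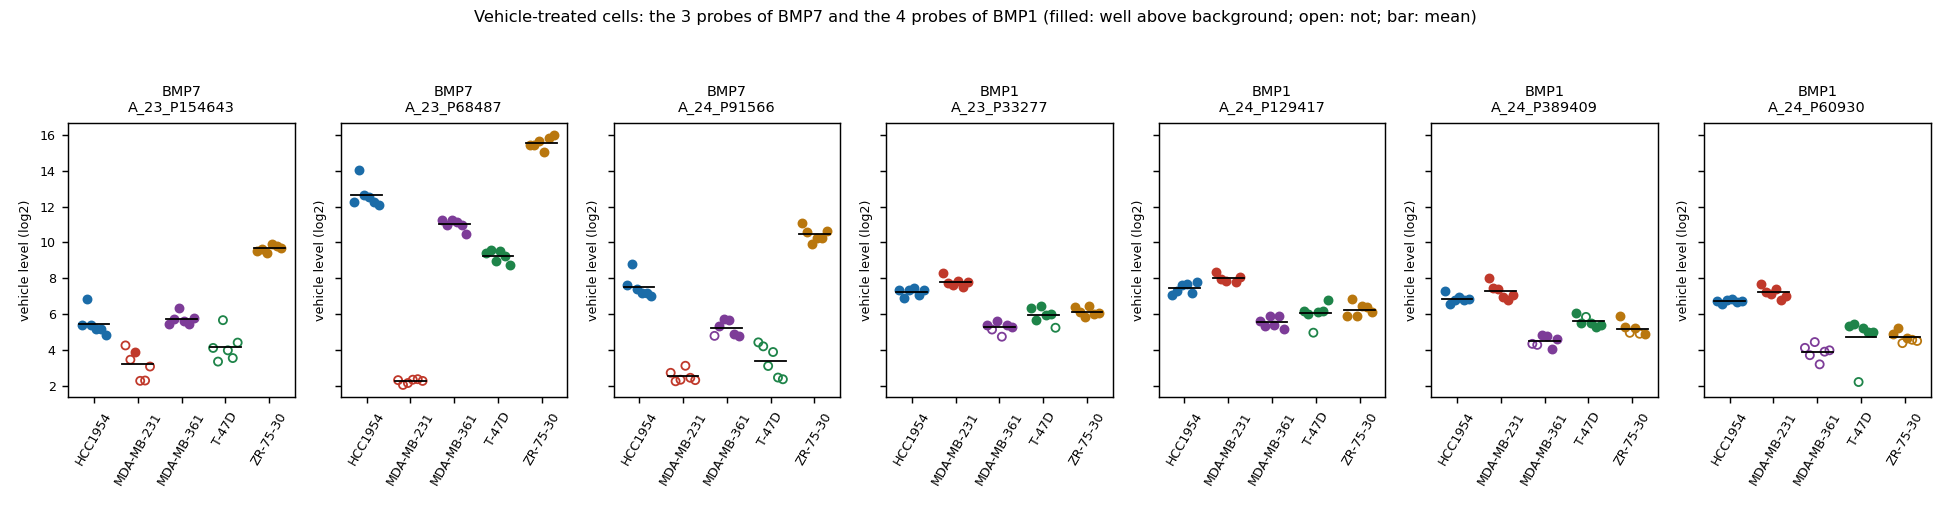
Vehicle level on the log2 scale (y axis) of the 3 probes of BMP7 and the 4 probes of BMP1 by cell line (x axis), with points, fill and bars as in the plot of the 10 genes. All 3 BMP7 probes are highest in ZR-75-30 and share the raised point of HCC1954 at 1 h, and all 4 BMP1 probes have MDA-MB-231 highest and HCC1954 next.

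BMP4, a close relative of BMP2, was above background on 30 of 30 arrays. Its probe A_23_P54144 (chr14:53487068-53487127, hg18) gave 1198, 2196 and 4896 in MDA-MB-231 as lowest, median and highest signal. In T-47D it gave 323, 795 and 947. ZR-75-30 followed with 88.1, 163 and 259. HCC1954 gave 21.5, 36.6 and 65.8, and MDA-MB-361 gave 33.1, 39.6 and 54.5. The first 3 lines were separate from each other and from the last 2, which overlapped. MDA-MB-231 was 2.62-fold above T-47D (limma adjusted p = 1.02e-05), T-47D was 5.54-fold above ZR-75-30 (limma adjusted p = 3.50e-10) and ZR-75-30 was 4-fold above HCC1954 (limma adjusted p = 2.25e-08). HCC1954 and MDA-MB-361 differed by 1.04-fold (limma adjusted p = 0.883), and MDA-MB-231 stood 60.5-fold above MDA-MB-361. MDA-MB-231 and T-47D were the lines not selected for low BMP4, so their higher level is not independent of how the lines were chosen.

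The promoter table, from RefSeq on GRCh38.p14, held windows for 7 of the 10 genes, with 9 windows in all. BMP1, BMP2 and BMP7 had no entry. The 250 bases before the start were searched on both strands for GGCGCC, a GC-rich sequence that BMP-activated SMADs are known to bind and that reads the same on both strands, and for TATAAA, the core of a TATA box. GGCGCC occurred in 1 of the 9 windows, against 16.4% of all 35116, and TATAAA in 3, against 10.7%. The 2 windows printed, with matches to either motif in capitals, belong to BMP4, the ligand with the widest range of levels among those above background on every array, and to GDF15, whose ratio after BMP7 was below 0 on nearly all arrays. BMP4 has 3 starts in the table and the most upstream is shown (chr14:53955051-53955300, minus strand), which holds GGCGCC. The GDF15 window (chr19:18385908-18386157, plus strand) holds TATAAA. A match describes the letters and not binding.
BMP4: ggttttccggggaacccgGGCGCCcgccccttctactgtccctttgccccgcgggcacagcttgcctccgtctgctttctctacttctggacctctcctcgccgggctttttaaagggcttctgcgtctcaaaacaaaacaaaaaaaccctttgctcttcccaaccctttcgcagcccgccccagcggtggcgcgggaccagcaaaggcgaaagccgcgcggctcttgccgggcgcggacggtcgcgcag
GDF15: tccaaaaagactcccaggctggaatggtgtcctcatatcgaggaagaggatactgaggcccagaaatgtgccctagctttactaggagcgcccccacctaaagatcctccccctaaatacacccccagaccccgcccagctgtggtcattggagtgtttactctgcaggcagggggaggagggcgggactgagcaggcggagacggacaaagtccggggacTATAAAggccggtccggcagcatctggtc

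BMP2, an osteogenic ligand, was detected throughout in HCC1954 alone. There its probe A_23_P143331 (chr20:6707242-6707301, hg18) gave a lowest signal of 55.4, a median of 89.8 and a highest of 167, and was above background on 6 of 6 arrays. In MDA-MB-231 and ZR-75-30 it was not above background on any array, and HCC1954 was at least 4.38-fold and 3.71-fold higher. The normalized line means, with the dim signals as read, differed too (limma adjusted p = 6.21e-06 and 3.58e-06). Those p-values do not test the bounds. MDA-MB-361 and T-47D each had 1 array above background, at 6 h with a signal of 82.0 and at 1 h with 78.4, while their other 5 arrays lay at or under 6.86. These single arrays reached the range of HCC1954, so the groups overlapped there.

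BMP6, a ligand best known from iron regulation in the liver, split the lines. Probe A_23_P19624 (chr6:7826394-7826453, hg18) was above background on 6 arrays of MDA-MB-231 (median 42.6), 5 of HCC1954 (median 43.2) and 3 of ZR-75-30 (median 31.3), and on none of T-47D and MDA-MB-361. MDA-MB-231 was at least 2.36-fold above MDA-MB-361 and at least 1.98-fold above T-47D. The normalized line means, with the dim signals as read, differed too (limma adjusted p = 8.39e-11 and 8.40e-10). Those p-values do not test the bounds. MDA-MB-231, HCC1954 and ZR-75-30 did not differ from each other past the threshold, with limma adjusted p between 0.0534 and 0.712.

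BMP5 and BMP8B were at the edge of detection. BMP5 was above background on 2 of 30 arrays, MDA-MB-231 at 0.5 h (84.0) and HCC1954 at 12 h (42.7). Its F-test passed (limma adjusted p = 0.0115), but without the 0.5 h time point, which holds the brighter of these arrays, it did not pass (limma adjusted p = 0.057), nor without 6 h (limma adjusted p = 0.0561). BMP8B was above background on 13 of 30 arrays in all 5 lines. The line means of BMP8B lay within 0.31 on the log2 scale (limma adjusted p = 0.931). Its near-identical neighbour BMP8A had a probe above background on 30 of 30 arrays, which differed between lines (limma adjusted p = 5.49e-05). That probe was highest in T-47D and lowest in ZR-75-30. Whether the probes share signal was not tested.

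GDF15 was above background on 30 of 30 arrays. Its probe A_23_P16523 (chr19:18360890-18360949, hg18) gave 36865, 68187 and 105135 in ZR-75-30 as lowest, median and highest signal. MDA-MB-361 followed with 9406, 19723 and 30870, and HCC1954 with 7838, 9489 and 17297. MDA-MB-231 gave 2256, 4997 and 7838, and T-47D gave 1951, 3760 and 7996. ZR-75-30 stood apart from all others, 3.12-fold above MDA-MB-361 (limma adjusted p = 6.95e-05) and 14.5-fold above MDA-MB-231 (limma adjusted p = 1.67e-11). HCC1954 was 2.01-fold above T-47D with overlapping ranges (limma adjusted p = 0.00923), and T-47D and MDA-MB-231 did not differ past the threshold (1.14-fold, limma adjusted p = 0.686).

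GDF11 was above background on 30 of 30 arrays and lowest in HCC1954. Probe A_23_P76102 (chr12:54429716-54429775, hg18) gave 82.7, 113 and 137 there as lowest, median and highest signal. In T-47D it gave 378, 416 and 513, which was 4.86-fold higher (limma adjusted p = 6.29e-13). The medians were 426 in MDA-MB-231, 390 in ZR-75-30 and 327 in MDA-MB-361. On the normalized log2 level the mean was highest in T-47D, and T-47D, MDA-MB-231 and ZR-75-30 did not differ from each other past the threshold (limma adjusted p from 0.0979 to 0.726). GDF5, a ligand of joint and cartilage formation, had a narrow range. Its probe A_23_P259955 (chr20:33485561-33485620, hg18) was above background on 29 of 30 arrays, with line medians between 57.7 and 101. MDA-MB-231 was lowest and ZR-75-30 was 2.26-fold above it (limma adjusted p = 0.000376), while the other 4 lines did not differ past the threshold (limma adjusted p from 0.371 to 0.895). The array of MDA-MB-231 at 6 h was the 1 not above background, with a signal of 3.89. It entered the line's mean as read, at 3.94 on the normalized log2 scale. The lowest signal well above background on that array was 5.57. The fold and p-values against MDA-MB-231 thus rest in part on a value below detection.

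BMP1, the procollagen and chordin protease, was highest in MDA-MB-231 and next in HCC1954 by all 4 probes. The leading probe A_24_P129417 gave 212, 338 and 795 in MDA-MB-231 as lowest, median and highest signal, of which the highest, at 6 h, came from a spot marked as an outlier and left out of the fits, so that 5 arrays entered there. In HCC1954 it gave 115, 204 and 272, and the medians of the other lines were 77.8 in ZR-75-30, 71.3 in T-47D and 52.0 in MDA-MB-361. HCC1954 was 3.72-fold above MDA-MB-361 (limma adjusted p = 2.65e-08). MDA-MB-231 was 1.47-fold above HCC1954 without passing the threshold (limma adjusted p = 0.0501), and of the other probes A_23_P33277 alone called that step (0.59 on the log2 scale, limma adjusted p = 0.00719). MDA-MB-361 was the lowest line by all 4 probes, and A_24_P60930 was not above background on any of its arrays.

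The levels of other genes across the 30 arrays were set beside those of BMP7, BMP4 and BMP2 by Pearson's correlation. Candidates came from the 30094 probes well above background in vehicle on at least 6 arrays. Probes without a RefSeq symbol, probes of the same gene and probes with too few shared arrays were dropped before ranking. Since the arrays fall into 5 lines, such a correlation mostly ranks likeness of the line means, and it is given as a description. Nearest to BMP7 were TRMT12 (r = 0.989), MGAT4A (r = 0.986) and GPC4 (r = 0.982). Nearest to BMP4 were SNTB1 (r = 0.973), CMTM7 (r = 0.967) and GJA1, which encodes the gap junction protein connexin 43 (r = 0.963). Nearest to BMP2 were SH3GL2 (r = 0.836), ALDH3A1 (r = 0.836) and IFNE1 (r = 0.834). BMP2 was above background in vehicle on 8 of 30 arrays, so its correlations rest mostly on signals below detection.

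Culture time alone changed no ligand past the threshold. Between the first hour and 12 to 24 h in vehicle, with cell line as a block, 0 of 15 probes passed an adjusted p of 0.05 in limma and 2 had an unadjusted p under 0.05, where 0.0268% of all probes passed (11 of 41000) and 3274 had an unadjusted p under 0.05. The 2 were BMP7 A_24_P91566, with a difference of -0.75 (SE 0.21, limma adjusted p = 0.273), and BMP1 A_24_P389409, with -0.42 (SE 0.13, limma adjusted p = 0.377). GDF15 had -0.30 (SE 0.24, limma adjusted p = 0.807), with lines that moved differently. In T-47D its vehicle level was 12.58, 13.01, 12.59, 11.97, 11.47 and 11.66 from 0.5 to 24 h. In HCC1954 it was 12.80, 13.66, 12.97, 12.78, 13.42 and 13.69, so that the late arrays were low in T-47D and not in HCC1954. From the first hour to 12 to 24 h it moved by -1.23 in T-47D and by -1.02 in MDA-MB-361. The move was 0.33 in HCC1954, 0.32 in MDA-MB-231 and 0.11 in ZR-75-30. That difference between lines was not tested.

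After BMP7, few ligand signals were 2-fold or more from their level in vehicle. The 15 probes gave 449 log2 ratios of BMP7 over vehicle, 305 of them from spots above background in Cy3 as well as Cy5, and 58 of exactly 0, which the scanner software writes where both channels hold substitute values for signals not above background. At or past 2-fold were 9 of the 449 (2%), against 1.87% over all probes and arrays. With both channels above background there were 2 of 305 (0.656%), against 0.798%. Both shares were near those of all probes. Tested over the 5 line means, 0 of 15 probes differed from 0 in limma after adjustment and 4 had an unadjusted p under 0.05, where 0.00976% of all probes passed (4 of 41000) and 6324 had an unadjusted p under 0.05. The median of the 15 mean ratios was -0.04, and that of all probes 0.00.

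**Figure D3:**
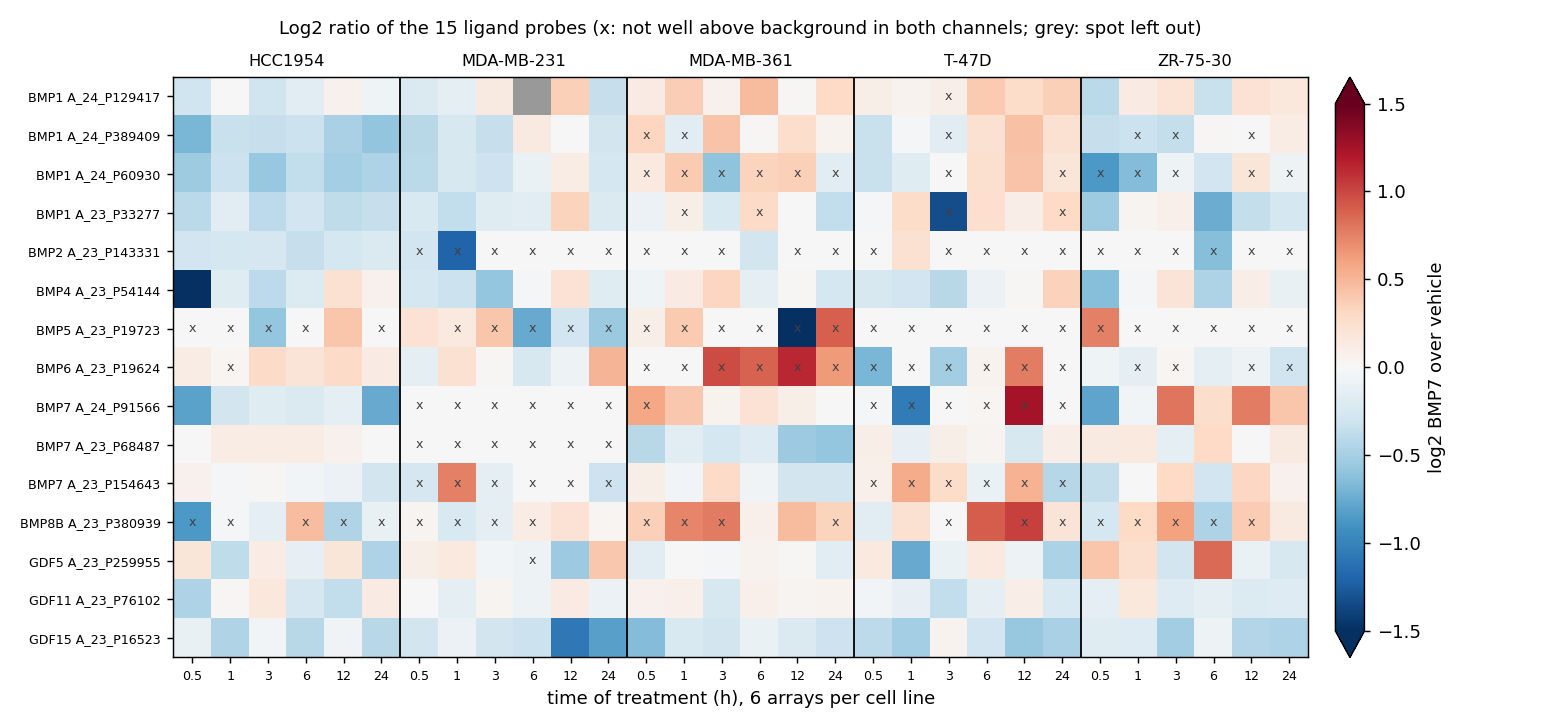
Log2 ratio of BMP7 over vehicle (colour, blue lower and red higher in BMP7-treated cells) of the 15 ligand probes (rows) on the 30 arrays (columns, by cell line and hours of treatment), with x where at least 1 channel was not well above background and grey for the spot left out as an outlier. Most of the deep colours carry an x, and the GDF15 row is blue on 29 of 30 arrays.

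GDF15 was lower with BMP7 than with vehicle on 29 of 30 arrays, by a small amount that did not pass the threshold. Its 6 ratios ran from -0.46 to -0.04 in HCC1954 with a median of -0.26, and from -1.07 to -0.08 in MDA-MB-231 with a median of -0.30. They ran from -0.65 to -0.10 in MDA-MB-361 with a median of -0.26, from -0.56 to 0.05 in T-47D with a median of -0.44, and from -0.52 to -0.08 in ZR-75-30 with a median of -0.32. The mean over the lines was -0.34 (SE 0.037, 5 lines, below 0 in 5 of 5), with a limma adjusted p of 0.0804. The first hour alone gave -0.31 (limma adjusted p = 0.189) and 3 to 24 h alone gave -0.35 (limma adjusted p = 0.162), and the change between them was -0.04 (SE 0.10, limma adjusted p = 0.868). Since no dyes were swapped, a constant dye effect of the probe cannot be told apart from a treatment effect in this mean. With normexp background correction of the raw signals and median scaling in place of the scanner software's processing, the mean was -0.01 (limma adjusted p = 0.931). The furthest values were those of MDA-MB-231 at 12 h, -1.07, and at 24 h, -0.81.

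**Figure D4:**
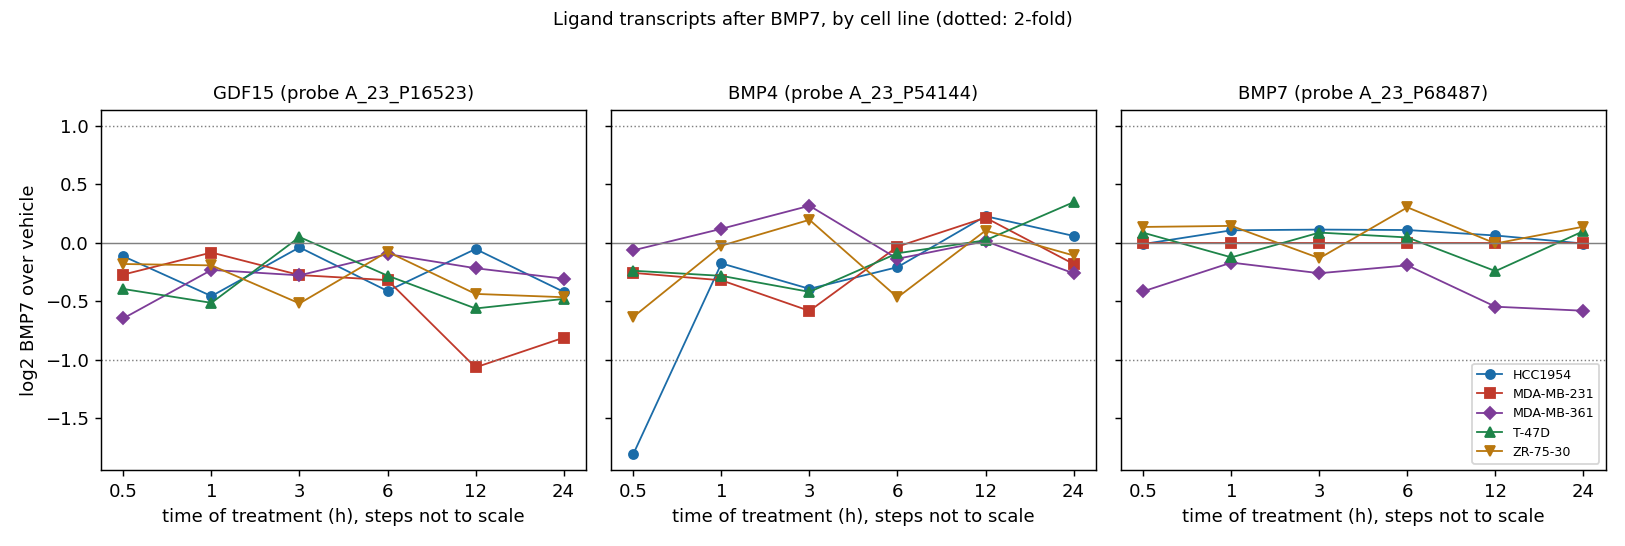
Log2 ratio of BMP7 over vehicle (y axis, dotted lines at 2-fold) of the leading probes of GDF15, BMP4 and BMP7 against hours of treatment (x axis, steps not to scale), with 1 line of points per cell line and 1 array per point. GDF15 lies below 0 nearly throughout and reaches -1.07 in MDA-MB-231 at 12 h, BMP4 has a single low point of -1.81 in HCC1954 at 0.5 h, and BMP7 stays below 0 in MDA-MB-361; the flat BMP7 values of MDA-MB-231 are substitute values and not measurements.

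BMP4 gave the largest single change among the 305 ratios with both channels above background. In HCC1954 at 0.5 h its ratio was -1.81, a 3.50-fold lower signal with BMP7 (18.8 against 65.8 in vehicle), while the other 5 arrays of that line lay between -0.39 and 0.23. Both signals are small, and that array was scanned with the second batch. The ratio of BMP4 was below 0 on 20 of 30 arrays, and its mean over the lines was -0.17 (SE 0.057, below 0 in 5 of 5 lines, limma adjusted p = 0.269). Against the first hour, 3 to 24 h differed by 0.30 (SE 0.15, limma adjusted p = 0.271). This difference was 0.91 in HCC1954, whose first hour holds that array, and between -0.04 and 0.26 in the other 4 lines, and without HCC1954 the mean was 0.15 (limma adjusted p = 0.567). The remaining 7 changes past 2-fold each had at least 1 channel not above background, and came from BMP1, BMP2, BMP5, BMP6, BMP7 A_24_P91566 (2, in opposite directions in T-47D) and BMP8B.

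Between the first hour and 3 to 24 h no ligand ratio changed past the threshold. With cell line as a block, 0 of 15 ligand probes passed in limma and 2 had an unadjusted p under 0.05, where 2.44% of all probes passed (587 up and 415 down, with 7598 at an unadjusted p under 0.05). The 2 were BMP1 A_24_P389409 (0.21, SE 0.076, limma adjusted p = 0.131) and BMP6 (0.29, SE 0.12, limma adjusted p = 0.182). The median over the 15 probes was 0.08, and over all probes 0.00.

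The cells' own BMP7 transcript differed between lines in its ratio at 3 to 24 h, by the leading probe. In an F-test over the lines 3 of 15 ligand probes passed (limma), against 5.89% of all probes. For BMP7 A_23_P68487 the limma adjusted p was 0.0317. In MDA-MB-361 the ratio was -0.42, -0.17, -0.26, -0.19, -0.55 and -0.58 from 0.5 to 24 h, below 0 on 6 of 6 arrays. In HCC1954 it lay between -0.01 and 0.11, in T-47D between -0.24 and 0.10, and in ZR-75-30 between -0.13 and 0.30, so that at 3 to 24 h MDA-MB-361 was below HCC1954 and ZR-75-30 on every array and overlapped T-47D. The mean at 3 to 24 h was -0.40 ± 0.20 (SD, n = 4) in MDA-MB-361 and 0.08 ± 0.19 (SD, n = 4) in ZR-75-30. The 6 values of MDA-MB-231 were exactly 0, from substitute signals, and without that line the limma adjusted p was 0.0384. The call was lost without any 1 of the 4 time points (limma adjusted p from 0.0739 to 0.236) and without HCC1954 (limma adjusted p = 0.100). Neither of the other BMP7 probes passed the test between lines. At 3 to 24 h A_24_P91566 had a mean of 0.09 in MDA-MB-361 and 0.56 in ZR-75-30 (limma adjusted p = 0.109). A_23_P154643 had -0.08 and 0.10 (limma adjusted p = 0.815). MDA-MB-361 was thus below ZR-75-30 by all 3 probes, but the probes disagreed on the lowest line. For A_24_P91566 the lowest was HCC1954 with a mean of -0.32, while MDA-MB-361 was above 0. For A_23_P154643 the lowest were MDA-MB-231 with -0.11, mostly from signals not above background, and HCC1954 with -0.10.

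The other 2 calls were BMP6 and a BMP1 probe. For BMP6 (limma adjusted p = 0.0337) the line that stood apart was MDA-MB-361, with 0.98, 0.89, 1.13 and 0.64 from 3 to 24 h. But the vehicle signal there was not above background on any array, and the ratio was 0 in the first hour. With another background correction the difference to ZR-75-30 went from 1.03 to 0.14 with loess and to -0.11 with median scaling. The BMP6 call was also lost whichever time point was left out (limma adjusted p from 0.101 to 0.200). It was lost with all 6 time points (limma adjusted p = 0.0626) and without HCC1954 (limma adjusted p = 0.0876) as well. For BMP1 A_24_P389409 (limma adjusted p = 0.0448) HCC1954 was lower, with ratios between -0.68 and -0.33 on 6 of 6 arrays, and MDA-MB-361 and T-47D had means of 0.19 and 0.18 at 3 to 24 h. With only spots above background in both channels the call held (limma adjusted p = 0.0113). In HCC1954 BMP1 A_24_P60930 ran from -0.57 to -0.32 and A_23_P33277 from -0.41 to -0.15, and the leading probe ran from -0.30 to 0.06. The 4 probes were thus mostly below 0 in that line, and the difference between lines passed the test for 1 of them. Leaving out MDA-MB-361 left 1 of 15 probes called, which was then BMP1 A_24_P60930, and leaving out HCC1954 left 0.

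Beside the ligands, the pathway that receives them moved in part. Of 23 receptors, SMADs, antagonists and early targets, 20 differed between lines in vehicle, where 73.6% of all probes did so, and at 3 to 24 h against the first hour 5 rose and 1 fell, where 2.44% of all probes changed. ID1 (0.85, SE 0.18, limma adjusted p = 0.0314), ID2 (0.61, SE 0.12, limma adjusted p = 0.0314) and ID3 (0.77, SE 0.12, limma adjusted p = 0.0132), the inhibitors of basic helix-loop-helix factors, rose, as did SMAD6, an inhibitory SMAD (0.53, SE 0.09, limma adjusted p = 0.0158), and SMAD9 (0.76, SE 0.13, limma adjusted p = 0.0158), and SMAD4 fell by 0.41 (SE 0.10, limma adjusted p = 0.0417). The median over the 23 was 0.06. These calls came from the fit over all 5 lines, which called 1002 of all probes, and 3 without ZR-75-30 and 4 without T-47D. Of 23 other TGF-β superfamily ligands on the array, 15 differed between lines and 1, BMP8A, rose from 3 h (0.73, SE 0.18, limma adjusted p = 0.0396), with a median of 0.00. Of 11 proteases and matrix proteins that process or hold the ligands, 10 differed between lines and 0 changed from 3 h, with a median of -0.01, and 5, 1 and 0 genes of the 3 lists differed between lines in their ratio, against 5.89% of all probes.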

How the data were processed

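Two-colour Agilent 44K arrays (30, 1 per cell line and time point) were used. Per the file headers, Feature Extraction 9.5.1.1 made the deposited log10 ratios and signal intensities, subtracting background, correcting the dyes by linear scaling and lowess, and writing substitute values for signals not above background. The authors also deposited log2 ratios in a series matrix, used as an alternative. Here log10 ratios were converted to log2, after dropping controls and outlier-marked spots (0.638% of spots), averaged per probe and centred on each array's median. For the vehicle levels, the mean log2 intensity of both channels was quantile normalized between arrays (Aquantile) in limma 3.58.1 under R 4.3.3. Each array's log ratio was kept, and the vehicle level was taken from the 2 together. Probes were fitted with limma over all 41000 probes, with Benjamini-Hochberg adjustment at 0.05, and the fits were tested on simulated data. Samples were grouped by the labelled cell line. The arrays came from 13 slides and 2 scan batches, 6 arrays being in the second. Probe coordinates are those of the array files. The named genes were all probes of the 10 ligands, and 3 further lists and 14 markers were counted. Members and lists were chosen with earlier results of these data known. Precision is limited by how many arrays there are and by signal over background. Alternatives were 75th percentile scaling, normexp (offset 50) with loess or median scaling, outlier spots kept, filters on background, slide, line or scan batch in the fit, the treated channel, 3-fold, and leaving out lines or times.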

Additional observations from a re-analysis of the deposited data

Results flagged for a closer look

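Among 56 groups of 6 arrays, each the vehicle levels or the ratios of 1 leading probe in 1 line with every spot above background, 4 had an array far from the rest. Chance marks about 1 in 20 such groups, and the 6 arrays are time points. The ratio of BMP4 in HCC1954 at 0.5 h was -1.81 (others -0.39 to 0.23). The vehicle level of BMP7 in HCC1954 at 1 h was 14.04 (others 12.09 to 12.62), and the other 2 BMP7 probes and the treated channel were highest on that array too. The ratio of GDF11 was -0.24 in MDA-MB-361 at 3 h (others 0.04 to 0.08) and 0.16 in ZR-75-30 at 1 h (others -0.21 to -0.15).

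The ratio at 3 to 24 h differed between lines for 3 probes in limma's F-test, BMP7 A_23_P68487 (adjusted p = 0.0317), BMP6 A_23_P19624 (adjusted p = 0.0337) and BMP1 A_24_P389409 (adjusted p = 0.0448). The causes were not tested.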

How the results depend on the processing

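The count of ligand probes that differed between lines in vehicle was 12 to 14 of 15 under all alternatives run, scan batch and slide included, with BMP5 the probe most often lost, and the counts for culture time and for 3 to 24 h against the first hour were 0 under all of them. The mean ratio called 1 of 15 probes, GDF15, with normexp and loess (-0.31, limma adjusted p = 0.0464), with the series matrix (-0.37, limma adjusted p = 0.0388), with both channels above background (-0.34, limma adjusted p = 0.0433) and over all arrays with line as a random block (-0.34, limma adjusted p = 0.000254), and 0 otherwise. Without 1 line its adjusted p was 0.147 to 0.288. Probes whose ratio differed between lines numbered 0 with normexp and median scaling and 1 with both channels above background, where 8 of 15 could be fitted. They numbered 0 to 3 with 1 time point or line left out, the lines having been added after the data were seen. The call of BMP7 A_23_P68487 was lost with the series matrix (limma adjusted p = 0.118) and with normexp and median scaling (0.0768), and that of BMP1 A_24_P389409 with slide as a random block (0.056), with normexp and median scaling (0.0988), without T-47D (0.0612) or ZR-75-30 (0.0501), and without 6, 12 or 24 h (0.118 to 0.322). The BMP6 call was lost whichever time point was left out and without HCC1954, and its difference turned to -0.11 with normexp and median scaling. Changes past 2-fold fell from 9 to 1 at 3-fold, 2 with both channels above background and 1 with normexp and loess. Counts over all probes also moved, where culture time called 2 to 42 probes (as reported 11), the mean ratio 0 to 3146 (as reported 4), 3 to 24 h against the first hour 2 to 1786 (as reported 1002, with 3 without ZR-75-30, 4 without T-47D and 56 without MDA-MB-231) and the ratio between lines 85 to 5450 (as reported 2415). Of 1117 values of single probes under alternatives, 1078 kept their direction where called and their side of the threshold. With time point as a block, 14 probes differed between lines in vehicle, and each ratio already pairs the treated and vehicle cells of 1 line and time. Most BMP5, BMP2 and BMP8B spots were not above background, which limits what their ratios can show.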
